A study of Mus musculus with 8 samples.

Results

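The Klr genes encode the killer cell lectin-like receptors, and 41 of the 39341 probes of a mouse lung array experiment carried a gene symbol that starts with Klr followed by a letter. All 41 were measured on all 8 arrays. They stood for 35 of the 25858 gene symbols in the table: 22 probes belonged to the Klra subfamily, 6 to Klrb, 5 to Klrc and 7 to the smaller Klrd, Klre, Klrg, Klri and Klrk subfamilies. The remaining probe, Klraq1, matched by its letters only. RefSeq now calls that gene Ppp1r21, and it is not a lectin, which leaves 40 lectin probes of 34 symbols. Where 6 symbols had several probes, the probes are told apart here by the kind of identifier in the files: RefSeq, Ensembl, GenBank, cDNA clone or MMT (an identifier of the array's maker).

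The experiment compared lungs of TGFb1-Tg mice, in which a transgene expressing active human TGF-beta1 in the lung is switched on by doxycycline, with lungs of wild-type (WT) mice. All mice were 10 weeks old on the B6J background, with 4 TGFb1-Tg and 4 WT lungs, each hybridised in Cy5 beside a pooled control RNA in Cy3. The drug was given in drinking water at 1 mg/ml, lungs of the study were taken 2 to 14 days after it was started, and the column headings of the deposited table give 14 days for these arrays. The headings state that TGFb1-Tg lungs were from drug-treated mice and WT lungs from mice given plain water. The promoter that drives the transgene is not given in the sources used here. For the pool, the sources differ: the sample labels name combined WT lungs on every array, while the headings name a pool of 4 untreated transgenic lungs on the TGFb1-Tg arrays and a pool of 4 untreated WT lungs on the WT arrays. A log2 sample over pool difference between the groups is therefore, by the headings, a change of drug-treated transgenic lungs from untreated transgenic lungs, less the deviation of each WT lung from its own pool.

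Klr receptors are type II membrane proteins with a C-type lectin-like domain, encoded side by side in the natural killer gene complex and displayed mainly by natural killer (NK) cells and some T cells. In the mouse, Klra receptors (Ly49) read classical MHC class I molecules, the Klrd1 and Klrc proteins form CD94/NKG2 dimers that read the class Ib molecule Qa-1, Klrb1 receptors read Clec2 lectins and Klrk1 (NKG2D) reads stress-induced ligands such as the Raet1 proteins. Inhibitory members recruit phosphatases through motifs in their own tails, whereas activating members signal through the adaptors Tyrobp (DAP12) and Hcst (DAP10).

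The Klra genes are near copies of each other, so a probe of one may pick up RNA of another. Their promoters were compared separately, and likeness of promoters does not measure likeness of the RNA that probes bind. RefSeq start sites (build GRCm38.p6) were available for 21 of the 33 Klr lectin genes that the probes stand for. The promoters, from 250 bases before to 50 bases after each start site, were searched for the 11-base pattern with 1 free letter that the most Klra genes share; TTTCCTCNTTT was 1 of 2 tied patterns, which overlap, and was then searched on both strands. It occurred in 9 of 11 Klra promoters, in 0 of 10 other Klr promoters and in 0.444% of the promoters of 27025 genes. Because it was chosen from these sequences, its frequency among the Klra genes is a description. The stretches that hold it, 64 bases from before the block to 8 bases after it, are printed in gene order on the minus strand, with the block in capitals, to show the related promoters of members that differed and of members that did not.
Klra17 (chr6:129876728-129876791, minus strand): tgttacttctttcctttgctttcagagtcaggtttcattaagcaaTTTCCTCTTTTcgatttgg
Klra5 (chr6:129913296-129913359, minus strand): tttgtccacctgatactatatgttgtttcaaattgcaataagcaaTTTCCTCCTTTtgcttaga
Klra6 (chr6:130027055-130027118, minus strand): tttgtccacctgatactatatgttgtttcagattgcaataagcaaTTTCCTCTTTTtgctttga
Klra4 (chr6:130067332-130067395, minus strand): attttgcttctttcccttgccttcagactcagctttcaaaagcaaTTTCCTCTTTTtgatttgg
Klra8 (chr6:130129960-130130023, minus strand): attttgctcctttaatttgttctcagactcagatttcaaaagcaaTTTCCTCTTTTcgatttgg
Klra9 (chr6:130193132-130193195, minus strand): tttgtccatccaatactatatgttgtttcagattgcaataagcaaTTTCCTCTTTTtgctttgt
Klra7 (chr6:130233393-130233456, minus strand): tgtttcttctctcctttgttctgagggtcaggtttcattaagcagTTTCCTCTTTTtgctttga
Klra3 (chr6:130337627-130337690, minus strand): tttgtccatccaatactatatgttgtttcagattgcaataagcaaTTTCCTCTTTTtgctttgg
Klra2 (chr6:131247415-131247478, minus strand): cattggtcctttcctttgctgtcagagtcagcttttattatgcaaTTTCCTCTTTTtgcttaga
Identity between any 2 of these 9 stretches ran from 50% to 98.4%, with a median of 57.0%. These values include the block, which was chosen because it is shared. The Klra3 and Klra9 stretches were 98.4% identical, and both genes' probes were lower in TGFb1-Tg lungs. The Klra5 and Klra6 stretches were 95.3% identical, and the Klra5 probe was called while the dim Klra6 probe was not. Klra7 (called lower) and Klra17 (not called) shared 84.4%, so genes with and without a call hold the block in similar surroundings. Of other motifs searched on both strands, the T-box core TCACACC was in the Klra1 promoter alone among the 21, against 4.60% of all promoters. The RUNX core TGTGGT was in those of Klra1, Klrb1a, Klrb1c, Klrc1, Klrc2, Klrc3, Klre1 and Klrk1, against 18.9% of all. A match of letters is not evidence of a bound factor.

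The arrays themselves divided in 2 respects that bear on the Klr values. Mouse Tgfb1 had sample intensities of 1.32 to 1.70 in TGFb1-Tg lungs and 0.61 to 0.76 in WT lungs. WT lung 1 stood apart from the other lungs, with an Xist intensity of 4.6 against 0.04 or less on the others and with almost no Ddx3y, and the pool carried Xist on the WT arrays (1.04 to 1.13) but not on the TGFb1-Tg arrays (0.01 to 0.02). The pools of the array sets were thus different RNAs, and counts without WT lung 1 are given beside the main ones. Of lung markers, Aqp5 (alveolar epithelium) read 10.58 to 12.56 in TGFb1-Tg lungs and 6.84 to 8.71 in WT lungs, and the surfactant gene Sftpc had a value on 1 array only. In the fits described below, Aqp5 was called higher in the sample channel only, where Cdh5 was called lower. Relative to pool, the lung markers Cdh5, Foxj1 and Pecam1 were called lower. The spread of log2 ratios over all probes was 0.39 to 0.41 (SD) on TGFb1-Tg arrays and 0.13 to 0.16 on WT arrays. Whole-lung RNA was measured, so fewer cells of a type and less RNA per cell cannot be told apart, and since the labels do not state separate litters, p-values measure the spread between these samples. All ratios of an array set share a pool, so ratio p-values and separations do not measure how far the pools differ.

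Most Klr receptor probes were lower in TGFb1-Tg lungs relative to pool. With limma on all 39167 testable probes and Benjamini-Hochberg adjustment, 27 of the 41 Klr probes were called lower at an adjusted p under 0.05, as were 16.9% of all probes, and 3 were called higher, as were 16% of all probes. Of the 22871 tested probes of mean intensity 0.1 or more, 5789 were called lower and 5384 higher. Without WT lung 1 the Klr counts were 26 lower and 1 higher, and after quantile normalization of the ratios limma called 14 lower and 0 higher Klr probes (25 lower and 1 higher at an unadjusted p under 0.05). The 13 lower probes no longer called then included Klre1, Klra7, Klra8, Klrb1c, Klrd1, Klri2 and both Klrc1 probes. All 27 lower probes had every TGFb1-Tg ratio below every WT ratio (16.6% of all probes), and 2 probes had the opposite separation (15.7% of all). The median difference, TGFb1-Tg minus WT, was -0.73 log2 units over the 41 probes and 0 over all probes tested. The lower calls covered 18 of 22 Klra, 2 of 6 Klrb, 4 of 5 Klrc and 3 of 7 other Klr probes, and the higher calls were both Klrb1b probes and 1 Klrg1 probe.

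**Figure D1:**
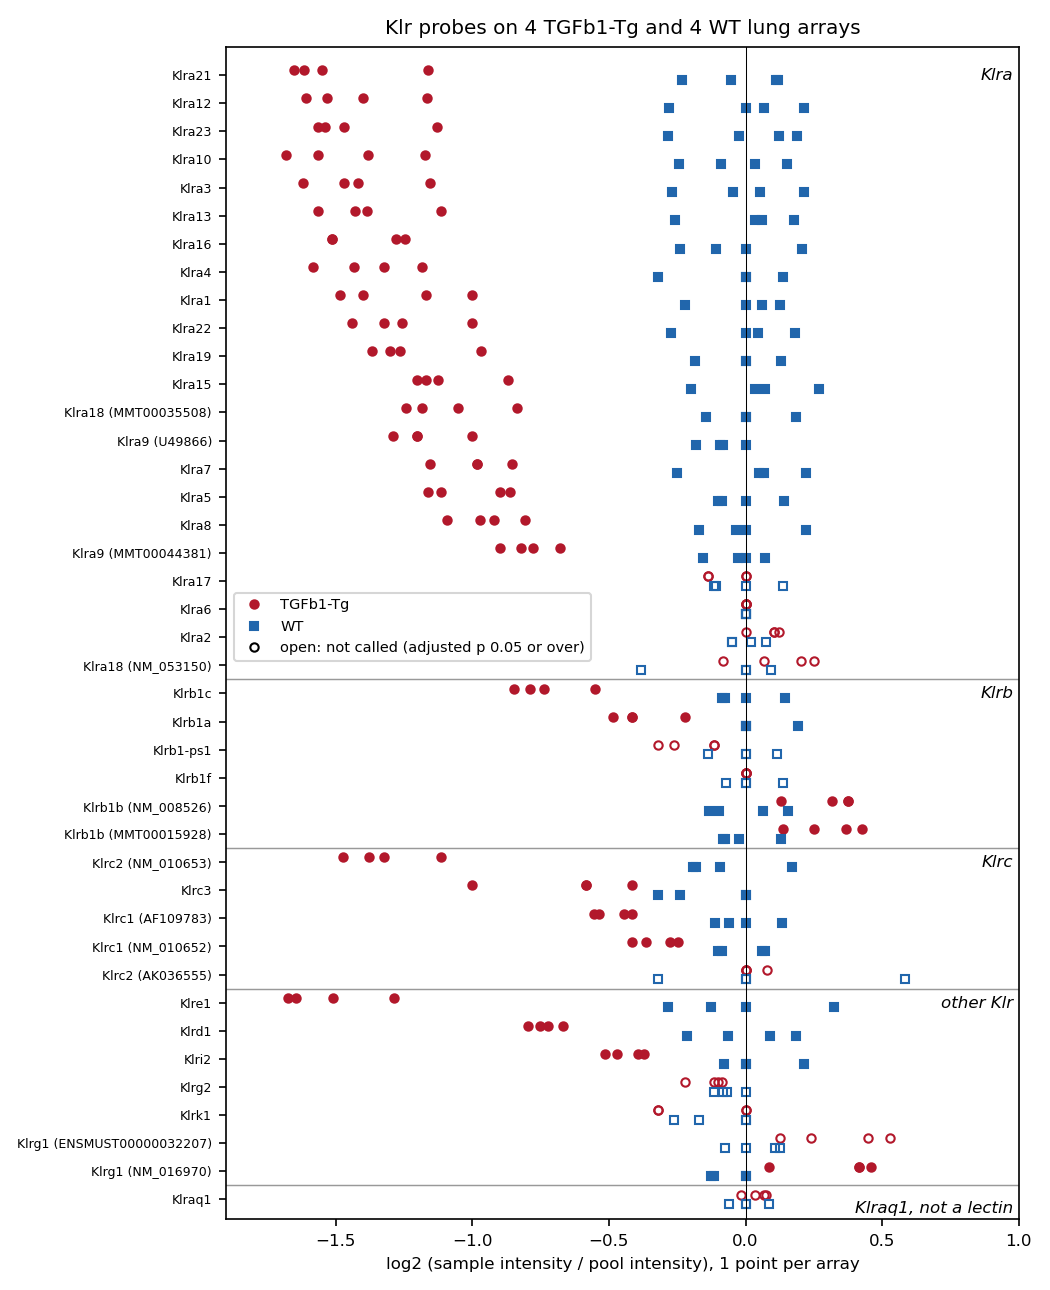
Log2 ratio of sample over pool intensity (horizontal axis) for each of the 41 probes, with 4 TGFb1-Tg arrays as red circles and 4 WT arrays as blue squares; filled symbols mark probes called in limma's fit. Called Klra probes form a block between -1.7 and -0.6 in TGFb1-Tg lungs, while Klra17, Klra6, Klra2 and the RefSeq probe of Klra18 overlap WT.

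The sample channel alone, without the pool, gave a smaller set. Each array's log2 sample intensities were centred on the array's median and fitted the same way, and 17 Klr probes were called lower (14.2% of all probes) and 5 higher (29.3% of all probes). Without WT lung 1 these counts were 14 and 6. All 17 lower probes were among the 27 of the ratio fit: 15 Klra probes, Klrc3 and Klre1. The TGFb1-Tg and WT lungs did not overlap in 15 lower probes (11.7% of all) and 5 higher probes (29.9% of all). Probes of mean intensity 0.1 or more had a median difference of 0.30 in this channel, so bright probes as a class sat higher in TGFb1-Tg lungs. Of these 22871 probes, 10563 were called higher and 1973 lower. Centred on those probes instead, an alternative chosen after seeing the data, 28 Klr probes were called lower, as were 38.9% of all probes, and 2 higher, as were 14.6% of all probes.

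Among Klra members, the inhibitory Klra3 (Ly49C) was called lower in ratio but not in the sample channel. Its sample intensities were 0.52, 0.43, 0.52 and 0.62 in TGFb1-Tg lungs 1 to 4, against 0.93, 0.68, 0.84 and 1.09 in WT lungs 1 to 4. The pool beside them read 1.44, 1.32, 1.39 and 1.38 on the TGFb1-Tg arrays, against 0.96, 0.82, 0.81 and 0.94 on the WT arrays. Every TGFb1-Tg lung was below its pool and below every WT lung in intensity as deposited. WT lungs lay close to their pool, which the labels and the headings both name as WT. Klra3 was 2.64-fold lower relative to pool (log2 difference -1.40 ± 0.13 SE, adjusted p = 0.000262, n = 4 against 4 arrays). In the centred sample channel its difference was -0.48, and the adjusted p of 0.0678 missed the threshold.

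The activating receptor Klra4 (Ly49D), which signals through Tyrobp, had sample intensities of 0.10, 0.09, 0.10 and 0.11 in TGFb1-Tg lungs, against 0.21, 0.16, 0.20 and 0.22 in WT lungs. Its pool read 0.27, 0.27, 0.25 and 0.25 on the TGFb1-Tg arrays, against 0.21, 0.20, 0.20 and 0.20 on the WT arrays. The groups did not overlap in either measure. Klra4 was 2.52-fold lower relative to pool (-1.33 ± 0.12 SE, adjusted p = 0.000232) and 1.63-fold lower in the centred sample channel (adjusted p = 0.00445).

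Klra8 (Ly49H), the activating receptor through which B6 mice recognise mouse cytomegalovirus, had sample intensities of 0.28, 0.23, 0.26 and 0.28 in TGFb1-Tg lungs, against 0.40, 0.32, 0.36 and 0.42 in WT lungs. Its pool read 0.49 to 0.53 on the TGFb1-Tg arrays, against 0.36 to 0.41 on the WT arrays. The sample intensities did not overlap as deposited. Klra8 was 1.93-fold lower relative to pool (-0.95 ± 0.10 SE, adjusted p = 0.000337), and its centred sample difference of -0.24 had an adjusted p of 0.205.

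Klra7 (Ly49G), an inhibitory receptor, had sample intensities of 0.46, 0.35, 0.39 and 0.42 in TGFb1-Tg lungs, against 0.66, 0.63, 0.91 and 0.84 in WT lungs. No TGFb1-Tg lung reached the lowest WT lung. Klra7 was 2.02-fold lower relative to pool (-1.02, adjusted p = 0.000493) and 1.55-fold lower in the sample channel (adjusted p = 0.00762). Klra1 (Ly49A), the inhibitory founder of the family, had intensities of 0.11, 0.10, 0.12 and 0.14 in TGFb1-Tg lungs, against 0.24, 0.18, 0.21 and 0.24 in WT lungs. It too did not overlap, with a 2.39-fold lower ratio (adjusted p = 0.000349) and a 1.54-fold lower sample channel (adjusted p = 0.0142).

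The other called Klra probes spanned a narrow range. Over all 18 lower Klra probes the log2 ratio difference ran from -1.48 (Klra21) to -0.77 (the MMT probe of Klra9), with a median of -1.25. Both inhibitory and activating receptors were within it. Klra9 (Ly49I) had 2 probes, with differences of -1.08 and -0.77, both non-overlapping between groups. Klra10, at -1.41 in ratio, was not called in the sample channel (-0.38, adjusted p = 0.106). RefSeq had no entry for 5 symbols among the Klra probes (Klra12, Klra15, Klra18, Klra19 and Klra21), and Klra22 is now listed as a synonym of Klra1. Klra13, with a difference of -1.38, is now listed as the pseudogene Klra13-ps. Klra12, Klra15, Klra19 and Klra21 had differences of -1.43, -1.14, -1.21 and -1.48. Klra22 and Klra1, with differences of -1.24 and -1.25, may report the same RNA. Cross-hybridisation among the Klra probes was not tested, so these counts are of probes and not of independent genes.

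The 4 Klra probes without a ratio call were Klra2, Klra17, Klra6 and the RefSeq probe of Klra18. Klra2 (Ly49B), which has been described on myeloid cells rather than NK cells, had sample intensities of 0.62, 0.61, 0.71 and 0.71 in TGFb1-Tg lungs, against 0.57, 0.58, 0.67 and 0.58 in WT lungs. Its deposited intensities overlapped between groups, and its pool stayed near its sample on every array. The ratio difference was 0.08 ± 0.04 SE (adjusted p = 0.176). The centred sample channel was higher by 0.41 log2 units (1.33-fold, adjusted p = 0.0159), where bright probes as a class were higher by 0.30 log2 units. Klra17 (Ly49Q), known from plasmacytoid dendritic cells and neutrophils, read 0.12, 0.10, 0.10 and 0.10 in TGFb1-Tg lungs, against 0.12, 0.13, 0.17 and 0.11 in WT lungs, with a ratio difference of -0.05 (adjusted p = 0.639). Klra6 (Ly49F) read 0.02 to 0.03 in TGFb1-Tg lungs and 0.03 to 0.04 in WT lungs. The RefSeq probe of Klra18 never rose above 0.01, whereas the MMT probe of that symbol was called lower (-1.09), so the 2 probes of Klra18 disagreed.

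Klrb1c encodes NK1.1, the activating receptor by which NK cells are recognised in B6 mice. Its sample intensities were 0.11, 0.10, 0.12 and 0.15 in TGFb1-Tg lungs, against 0.18, 0.16, 0.19 and 0.21 in WT lungs. Its pool read 0.18 to 0.22 beside TGFb1-Tg lungs and 0.17 to 0.20 beside WT lungs. Centred like the samples, the pool was 0.36 log2 units higher on the TGFb1-Tg arrays. All TGFb1-Tg lungs were below all WT lungs as deposited. Klrb1c was 1.66-fold lower relative to pool (-0.73 ± 0.08 SE, adjusted p = 0.000487), and its centred sample difference of -0.37 missed the threshold (adjusted p = 0.106).

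Klrb1b, the inhibitory partner of Clec2d in the same subfamily, went the other way. Its MMT probe read 0.77, 0.86, 0.80 and 0.75 in TGFb1-Tg lungs, against 0.67, 0.56, 0.69 and 0.57 in WT lungs. Its RefSeq probe read 0.81, 0.87, 0.92 and 0.81 in TGFb1-Tg lungs, against 0.61, 0.58, 0.78 and 0.71 in WT lungs. On both probes every TGFb1-Tg lung exceeded every WT lung. The ratio differences were 0.31 (adjusted p = 0.0201) and 0.30 (adjusted p = 0.0321). Both calls were lost on leaving out TGFb1-Tg lung 3 or WT lung 1, 2 or 4 (adjusted p = 0.0548 to 0.0841). The call of the RefSeq probe was also lost without TGFb1-Tg lung 2 or 4. After quantile normalization of the ratios neither probe was called (adjusted p = 0.286 and 0.535). The sample channel was 1.54-fold higher on both probes (adjusted p = 0.00162 and 0.00434).

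The other Klrb probes were dim or showed small differences. Klrb1a, an activating receptor, read 0.05 to 0.06 in TGFb1-Tg lungs and 0.07 to 0.08 in WT lungs, with a ratio difference of -0.43 (adjusted p = 0.00311). With intensities deposited to 2 decimals, rounding alone could move that difference by up to 0.44. Klrb1f (0.07 to 0.13 in TGFb1-Tg lungs, 0.11 to 0.20 in WT lungs) and the pseudogene Klrb1-ps1 (0.10 to 0.12 in TGFb1-Tg lungs, 0.10 to 0.14 in WT lungs) had ratio differences of -0.02 (adjusted p = 0.818) and -0.20 (adjusted p = 0.0718).

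Klrd1 (CD94), the common chain of the CD94/NKG2 receptors, was lower only relative to pool. Its sample intensities were 0.88, 0.89, 0.92 and 0.79 in TGFb1-Tg lungs, against 1.09, 0.81, 1.01 and 1.09 in WT lungs. The pool read 1.53, 1.47, 1.46 and 1.33 on the TGFb1-Tg arrays, against 1.14, 0.94, 0.95 and 0.96 on the WT arrays. The sample values overlapped, while the pool beside TGFb1-Tg lungs exceeded the pool beside WT lungs on every array. Klrd1 was 1.66-fold lower relative to pool (-0.73 ± 0.09 SE, adjusted p = 0.000729), and in the centred sample channel its sign turned (0.07, adjusted p = 0.701). Its centred pool was 0.81 log2 units higher on the TGFb1-Tg arrays, a difference that the p-value of the ratio does not measure.

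The Klrc chains that pair with Klrd1 were also lower relative to pool. Klrc2 (NKG2C, activating) read 0.10, 0.09, 0.10 and 0.12 on its RefSeq probe in TGFb1-Tg lungs, against 0.15, 0.14, 0.15 and 0.18 in WT lungs, without overlap as deposited. It was 2.38-fold lower relative to pool (-1.25 ± 0.11 SE, adjusted p = 0.000176), and its sample difference was -0.33 (adjusted p = 0.114). Klrc1 (NKG2A, inhibitory) had 2 probes. The GenBank probe read 0.24, 0.25, 0.20 and 0.17 in TGFb1-Tg lungs, against 0.24, 0.30, 0.37 and 0.34 in WT lungs. The RefSeq probe read 0.19, 0.15, 0.14 and 0.16 in TGFb1-Tg lungs, against 0.16, 0.14, 0.25 and 0.21 in WT lungs. Both overlapped between the groups, and their ratio differences were -0.48 (adjusted p = 0.000951) and -0.31 (adjusted p = 0.00532). In the sample channel neither was called (-0.27 and 0.05). Klrc3 (NKG2E) read 0.02 to 0.03 in TGFb1-Tg lungs and 0.04 to 0.11 in WT lungs, the 0.11 from WT lung 1 alone, and was called lower in both fits. Rounding could move its ratio difference of -0.51 by up to 0.89. The ratio call was lost on leaving out TGFb1-Tg lung 3 or 4 or WT lung 1, 3 or 4 (adjusted p = 0.0570 to 0.0878), and the sample-channel call on leaving out TGFb1-Tg lung 1 (0.0511). The cDNA clone probe of Klrc2 read 0.02 or less in TGFb1-Tg lungs and 0.01 to 0.04 in WT lungs, and was not called.

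Klre1, which forms inhibitory or activating dimers with the Klri proteins, had the largest ratio difference of the 41 probes. Its sample intensities were 0.39, 0.36, 0.40 and 0.41 in TGFb1-Tg lungs, against 0.81, 0.55, 0.65 and 0.99 in WT lungs. The pool read 1.22, 1.15, 1.14 and 1.00 on the TGFb1-Tg arrays, against 0.81, 0.67, 0.71 and 0.79 on the WT arrays. TGFb1-Tg lungs lay close together and below all WT lungs, which were spread. Klre1 was 2.84-fold lower relative to pool (-1.51 ± 0.15 SE, adjusted p = 0.000314, but 0.0569 after quantile normalization of the ratios) and 1.56-fold lower in the sample channel (adjusted p = 0.0326), a sample-channel call that was lost on leaving out WT lung 1 (adjusted p = 0.0527) or any TGFb1-Tg lung (0.0526 to 0.0719). Its partner Klri2 read 0.14, 0.16, 0.13 and 0.17 in TGFb1-Tg lungs, against 0.25, 0.18, 0.30 and 0.29 in WT lungs. The groups were separate as deposited. The Klri2 ratio difference was -0.47 (adjusted p = 0.00174) and its sample difference -0.48 (adjusted p = 0.0585).

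Klrg1, an inhibitory receptor for cadherins found on mature NK cells, effector T cells and some innate lymphoid cells, was the other member that was higher. Its RefSeq probe read 0.20, 0.22, 0.20 and 0.17 in TGFb1-Tg lungs, against 0.13, 0.12, 0.12 and 0.11 in WT lungs. All 4 TGFb1-Tg lungs were above all 4 WT lungs. The ratio difference was 0.40 ± 0.09 SE (adjusted p = 0.0113), and the sample channel was 1.98-fold higher (adjusted p = 0.000223). The Ensembl probe of Klrg1 read 0.15, 0.13, 0.13 and 0.12 in TGFb1-Tg lungs, against 0.12, 0.14, 0.19 and 0.14 in WT lungs. That probe overlapped between groups and was called in neither fit (0.30, adjusted p = 0.0589, in ratio), so the 2 probes differed in the sample channel.

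Klrk1 (NKG2D) was too dim to compare, at 0.04 to 0.05 in TGFb1-Tg lungs and 0.05 to 0.08 in WT lungs (ratio difference -0.05, adjusted p = 0.764). Klrg2 read 0.12 to 0.16 in TGFb1-Tg lungs and 0.12 to 0.21 in WT lungs and was called in neither fit. Klraq1, the non-lectin, had a ratio difference of 0.03 (adjusted p = 0.497) and was 1.33-fold higher in the centred sample channel (adjusted p = 0.0116), as was Klra2.

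**Figure D2:**
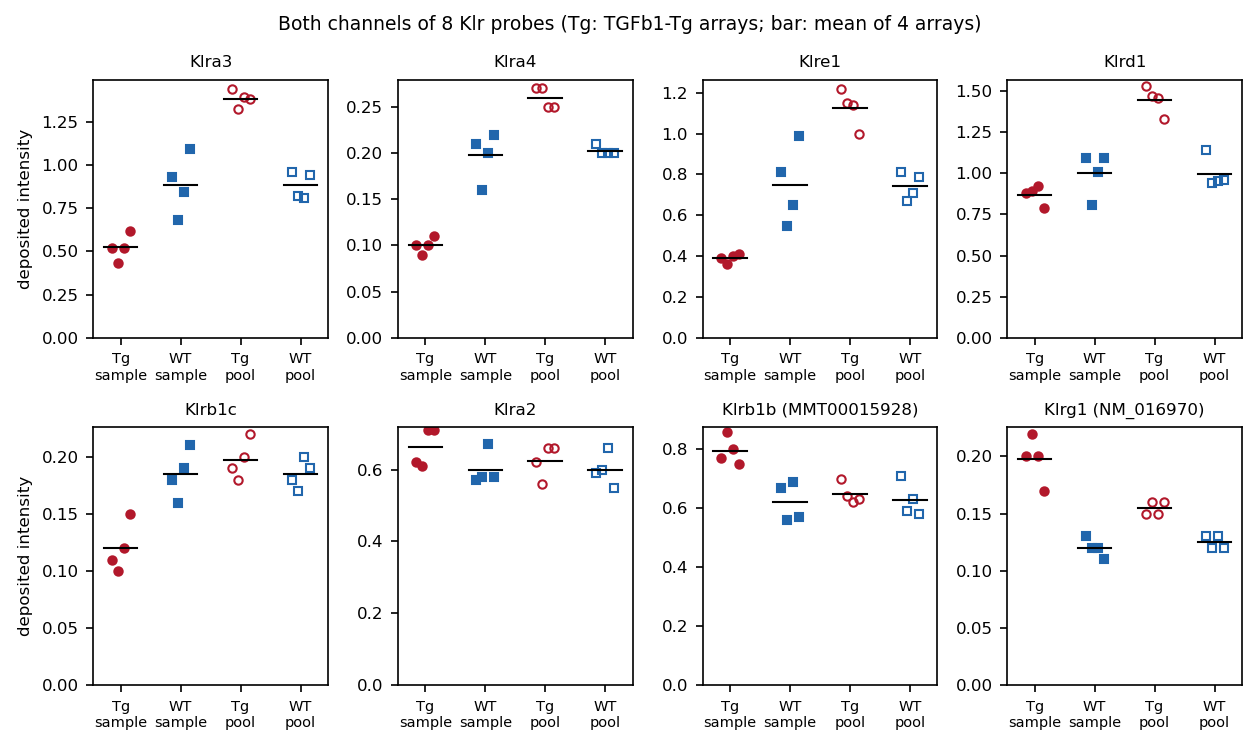
Deposited intensity (vertical axis, arbitrary units, from 0) of 8 Klr probes, with the sample channel as filled symbols and the pool channel as open symbols, 1 point per array and a bar at the mean of 4. For Klra3, Klra4 and Klre1 the TGFb1-Tg samples are the lowest of the 4 columns and the TGFb1-Tg pool is the highest, whereas Klrd1 samples overlap and Klrb1b and Klrg1 samples are highest in TGFb1-Tg lungs.

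The pool channel differed between the array sets for the same genes. Centred like the samples, the pool of the TGFb1-Tg arrays minus the pool of the WT arrays had a median of 0.70 log2 units over the 18 Klra probes called lower (0.39 to 1.03), against 0.12 over all probes. The pool was higher on the TGFb1-Tg arrays in all 18. Klrd1 (0.81), Klre1 (0.87) and the RefSeq probe of Klrc2 (0.92) were in that range, Klra17 (-0.01) and Klri2 (-0.01) were not. Repeat readings of a pool are 1 RNA, so this difference has no test. It enters every ratio of an array set alike, so the SE and adjusted p of a ratio difference leave it unmeasured. By construction a ratio difference is the sample difference less the pool difference, apart from centring. The median of the same 18 probes was -0.53 in the sample channel and -1.25 in ratio.

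**Figure D3:**
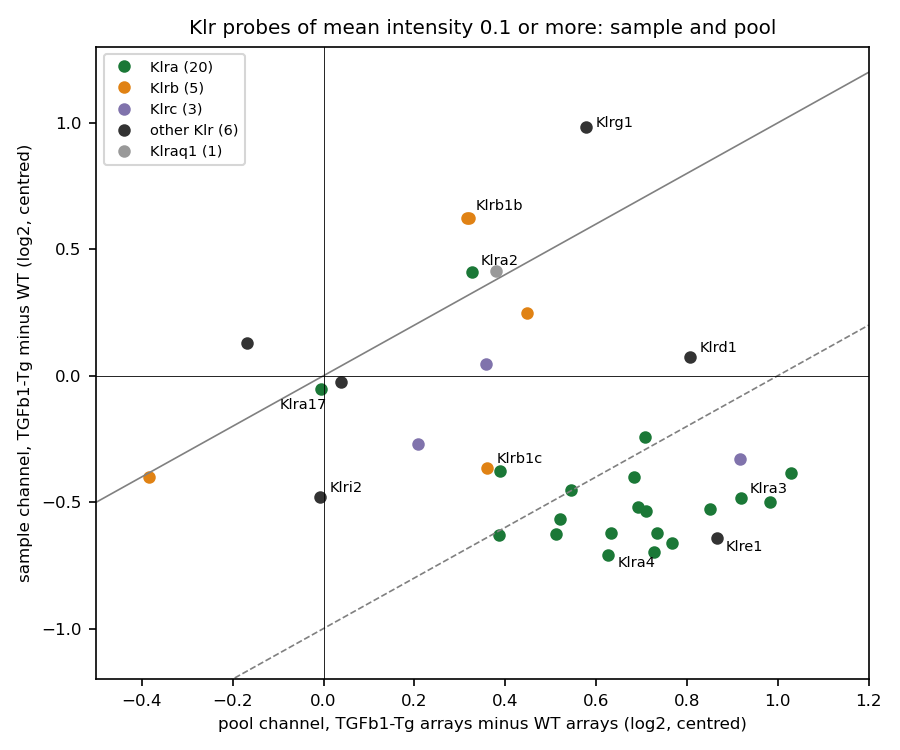
Difference of the centred sample channel (vertical axis, log2, TGFb1-Tg minus WT) against that of the centred pool channel (horizontal axis, log2, TGFb1-Tg arrays minus WT arrays) for the Klr probes of mean intensity 0.1 or more, coloured by subfamily. On the solid line sample and pool differ alike; on the dashed line the sample over pool ratio is 1 log2 unit lower in TGFb1-Tg lungs. Most Klra probes lie at the lower right, with lower samples and a higher pool.

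Within each group the called Klr probes kept nearly the same order of arrays. Over the 25 probes called lower with mean intensity 0.1 or more, TGFb1-Tg lung 2 had the lowest TGFb1-Tg ratio in 21 and TGFb1-Tg lung 4 the highest in 21. WT lung 2 had the lowest WT ratio in 24 and WT lung 4 the highest in 24. Over all 22330 probes of that brightness, ties counted, the shares were 31.2%, 25.05%, 32.5% and 25.1%. Median ratios of the 25 probes were -1.37 in TGFb1-Tg lung 2 and -1 in TGFb1-Tg lung 4, against -0.21 in WT lung 2 and 0.18 in WT lung 4. The probes of an array share its RNA and its hybridisation, and the members partly share sequence.

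By position on chromosome 6, most Klrc and Klra probes were called lower, Klrb probes were divided (2 higher, 2 lower and 2 not called) and the smaller subfamilies were mixed. RefSeq places the members it lists there in the order Klrg1, Klrb, Klre1 and Klrd1, Klrk1 and Klrc, Klri2 and Klra. Klra17, Klra5, Klra6 and Klra4 are neighbours, with ratio differences of -0.05, -1.0, 0.00 and -1.33. From Klra4 to Klra1 each of the Klra probes was called lower. Klra2, the last in the order and apart from the other Klra genes, was not.

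**Figure D4:**
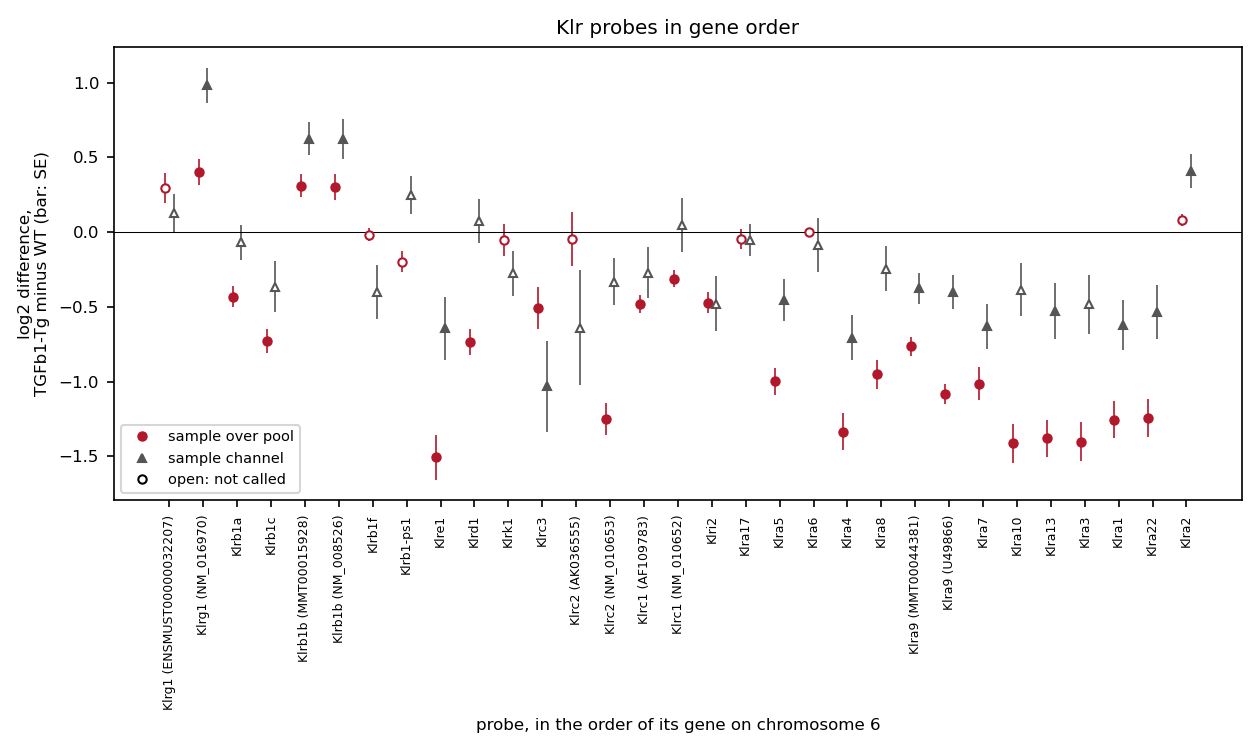
Log2 difference, TGFb1-Tg minus WT, with its SE (vertical axis) for Klr probes placed in the order of their genes on chromosome 6 (horizontal axis, order only); red circles show sample over pool, grey triangles the centred sample channel, and open symbols were not called. The probes from Klra4 to Klra22 are all negative in both measures, and Klra2 at the right end is not.

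The deposited per-array p-values ran the same way. The authors' deposited table gave 28, 27, 28 and 23 of the 41 Klr probes a p under 0.05 against the pool on TGFb1-Tg arrays 1 to 4, where 13.8% to 15.9% of all probes did. On WT arrays 1 to 4 the authors' deposited table gave 0, 2, 0 and 0 Klr probes, where 0.180% to 0.682% of all probes did. The labels and the headings both name a WT pool for these arrays, so few calls there are built into the design. Of the TGFb1-Tg counts, 26, 24, 26 and 23 probes were below the pool.

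Tyrobp (DAP12), the adaptor of the activating Klra receptors, was higher in TGFb1-Tg lungs. It had sample intensities of 6.30, 7.21, 6.42 and 6.13 in TGFb1-Tg lungs, against 2.63, 2.60, 3.07 and 2.90 in WT lungs. The groups were far apart, and the ratio difference was 0.87 ± 0.09 SE (adjusted p = 0.00031). Fcer1g, another adaptor chain with an activating motif, was higher by 0.74 (adjusted p = 0.00104). Hcst (DAP10), which serves Klrk1, read 0.20 to 0.24 in TGFb1-Tg lungs and 0.19 to 0.24 in WT lungs (-0.06, adjusted p = 0.683). Of 19 probes of adaptors and proximal signalling genes, 5 were called higher (Tyrobp, Fcer1g, Vav1, Syk and Plcg2) and 3 lower (Sh2d1a, Cd247 and Fyn). Over all probes, 16% were called higher and 16.9% lower in ratio. The Cd247 and Sh2d1a calls came from dim probes, and the 2 other Cd247 probes were not called. The sample channel had 10 higher and 2 lower calls (Cd247 and Sh2d1a), where 29.3% of all probes were called higher and 14.2% lower. Only 5 of the 19 probes were dim, and of the 22871 tested probes of mean intensity 0.1 or more, 10563 were called higher there and 1973 lower. Fyn, a kinase, was lower in ratio (-0.15) but higher in the sample channel (0.62, adjusted p = 0.00294), and Hcst was higher there as well (0.37). Myeloid cells also use Tyrobp and Fcer1g: of 9 monocyte and macrophage marker probes 6 were called higher and 0 lower by limma (7 and 0 at an unadjusted p under 0.05), and their summed intensity was 42.9 to 46.8 in TGFb1-Tg lungs, against 27.2 to 28.8 in WT lungs. Their part in the adaptor values was not tested.

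Raet1 ligands of Klrk1 were higher in TGFb1-Tg lungs, mostly on dim probes. The Raet1c probe read 0.34, 0.31, 0.26 and 0.30 in TGFb1-Tg lungs, against 0.17, 0.18, 0.16 and 0.17 in WT lungs, without overlap (0.99 ± 0.07 SE, adjusted p = 8.92e-05). Of the 7 probes of NKG2D ligands limma called 5 higher and 0 lower (5 and 0 at an unadjusted p under 0.05): Raet1a (1.16), Raet1b (2.60, from intensities of 0.02 or less in WT lungs), Raet1c and both Raet1d probes (0.26 and 2.02). Raet1 genes are near copies, so these probes may share RNA. Ulbp1 and H60a had ratio differences of 0.00. In the sample channel H60a was called lower (-1.06, adjusted p = 0.00344), but its pool differed by the same -1.06. Its intensities were 0.08 or less, and sample and pool were equal on every array. Of the 7 probes 5 were dim, with a mean intensity under 0.1. The median of the 7 was 0.99, against 0 over all probes. Of all probes, 16% were called higher and 16.9% lower in ratio.

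Ligands of the other Klr receptors moved less. The 3 probes of H2-T23, which encodes the CD94/NKG2 ligand Qa-1, had ratio differences of -0.27, -0.24 and -0.26 (adjusted p = 0.00741, 0.0154 and 0.0226), and in the sample channel the differences were positive and none was called (0.22, 0.19 and 0.35). Clec2d, the ligand of Klrb1b, read 7.38 to 7.89 in TGFb1-Tg lungs and 6.97 to 9.88 in WT lungs (-0.10, adjusted p = 0.295). Clec2g, a dim probe for a ligand of Klrb1f, had the largest fall at -0.71. Cdh1, the E-cadherin that Klrg1 binds, was higher by 0.20 (adjusted p = 0.00395). Cdh2, another cadherin of the list, was called lower on its brighter probe (-0.67, adjusted p = 0.0065). The dim probe of Cdh2 and the dim Cdh4 probe were not called. Of 20 probes tested, 2 were called higher (16% of all probes) and 7 lower (16.9% of all probes) in ratio, with a median of -0.12. In the sample channel limma called 5 higher and 0 lower (8 and 0 at an unadjusted p under 0.05), with a median of 0.18. Of all probes, 29.3% were called higher there and 14.2% lower.

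Genes that mark NK cells outside the Klr family were mostly lower relative to pool too. Of 21 marker probes, 15 were called lower (16.9% of all probes) and 2 higher (16% of all probes), with a median ratio difference of -0.58. Ncr1 (NKp46) read 0.09, 0.07, 0.10 and 0.09 in TGFb1-Tg lungs, against 0.15, 0.12, 0.13 and 0.16 in WT lungs, without overlap (-1.19 ± 0.12 SE, adjusted p = 0.000416). The T-box factor Eomes (-1.18) and its relative Tbx21 (-0.82) and the granule genes Gzma (-1.40), Gzmb (-1.10), Nkg7 (-0.86) and Prf1 (-0.56) were called lower, as was the IL-15 receptor chain Il2rb (-0.67). The largest fall was S1pr5 (-1.42), a receptor for NK cell exit into blood, and the largest rise was the signalling adaptor Sh2d1b1 (0.86). In the sample channel 5 were called lower (Cma1, Eomes, Gzmb, S1pr5 and Tbx21, against 14.2% of all probes) and 2 higher (Cd244a and Sh2d1b1, against 29.3% of all probes). Cma1 encodes the mast cell chymase, and without it 14 of 20 probes were called lower in ratio and 4 in the sample channel. Their summed sample intensity was 6.50 to 7.69 in TGFb1-Tg lungs, against 8.02 to 10.7 in WT lungs, and their summed pool was 12.2 to 13.1 on the TGFb1-Tg arrays, against 8.95 to 9.66 on the WT arrays.

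T cell markers, from cells that can carry Klr receptors, had fewer lower calls in ratio. Of 19 probes 5 were called lower in ratio (Cd8a, Trat1, Cd28, Lat and Bcl11b) and 0 higher by limma (6 lower and 0 higher at an unadjusted p under 0.05), with a median of -0.14. In the sample channel 3 were called higher (Cd3g, Cd5 and Cd6) and 0 lower by limma (4 higher and 2 lower at an unadjusted p under 0.05), with a median of 0.14. Of all probes, 16.9% were called lower and 16% higher in ratio, and 14.2% and 29.3% in the sample channel. Cd3e, of the T cell receptor complex, read 0.86, 0.69, 0.66 and 0.70 in TGFb1-Tg lungs, against 0.91, 0.79, 0.78 and 0.66 in WT lungs (-0.05, adjusted p = 0.464). Cd4 (0.01, adjusted p = 0.914) was not called, and Cd8a was lower (-0.86, adjusted p = 0.00166). The list's summed sample intensity was 6.79 to 8.20 in TGFb1-Tg lungs, against 6.88 to 8.71 in WT lungs. Il15, the cytokine that maintains NK cells, had ratio differences of 0.06 (adjusted p = 0.272) and 0.01 (adjusted p = 0.778) on its 2 probes. The first was higher in the sample channel (0.54, adjusted p = 0.00663) and the second was not called (-0.29, adjusted p = 0.0888).

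**Figure D5:**
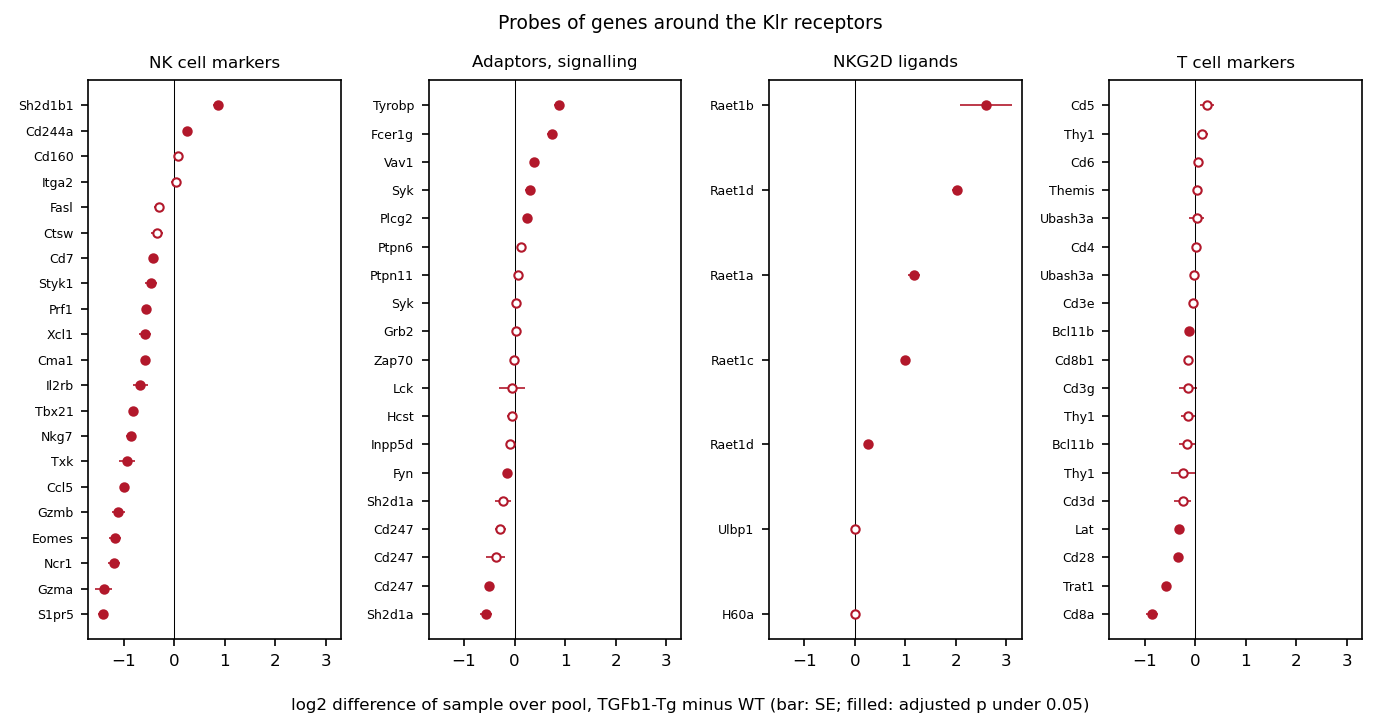
Log2 difference of sample over pool, TGFb1-Tg minus WT, with its SE (horizontal axis) for probes of 4 gene lists; filled points were called. NK cell markers lie mostly below 0 and NKG2D ligands at or above 0, with Tyrobp and Fcer1g at the top of the adaptors and T cell markers near 0 except Cd8a and Trat1.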

How the data were processed

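RNA from 4 TGFb1-Tg and 4 WT lungs was amplified in 2 rounds and hybridised in Cy5 beside a Cy3 pool on 2-colour arrays, per the labels' protocols. Features were extracted with Agilent Feature Extraction 8.5.1.1, per the submitters' processing notes. The table deposited by the authors holds both channels' intensity per probe and a p-value per array, per the file headers. A second deposited table holds log10 sample over pool ratios; each matched the intensity table within 0.005. The deposited intensities are to 2 decimals above 0.01. Neither labels nor headers state how background was corrected or channels were scaled, and array medians were 0.13 to 0.18.

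The log2 ratio of sample over pool, and the log2 sample intensity less its array's median, were fitted per probe with limma 3.58.1 (R 4.3.3; lmFit, eBayes, Benjamini-Hochberg) over 39167 probes with at least 2 values per group. All differences are TGFb1-Tg minus WT, and calls need an adjusted p under 0.05. On simulated data the ratio fit of 38623 probes recovered 52.5% of 80 altered by 0.5 log2 units, 86.25% of 80 altered by 1 and 90% of 40 altered by 2, and made 18 false calls. Median SE was 0.0586 in ratio and 0.139 in the sample channel; the number of arrays limits precision.

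The members, the 12 context lists (149 genes) and the tests were chosen with earlier results of these data known. The naming rule accounted for every Klr probe, gave sample values for those of mean intensity 0.1 or more, or called, and, since over 16 qualified, the rest by range and count; those shown in full were chosen after their values were seen. Of each list, the largest called rise and fall and a set of named receptors, adaptors, ligands and cytokines were given. Replicate numbers did not pair lungs across groups: same-numbered arrays correlated at 0.02 to 0.06 in ratio. Alternatives were quantile normalization, 0.05 added to intensities, removal of dim probes, averaging of a gene's probes, other centring, a replicate block and leaving out each array.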

Additional observations from a re-analysis of the deposited data

Results flagged for a closer look

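The 41 Klr probes, in 2 groups and 2 measures, gave 164 groups of 4 arrays, and in 14 of them 1 array stood apart from the other three by Dixon's criterion; chance flags about 1 in 20 groups. In the ratio, Klrg1 (RefSeq probe) was 0.0875 in TGFb1-Tg lung 4, against 0.415 to 0.459 in the other TGFb1-Tg lungs. Klra2 was 0 in TGFb1-Tg lung 1, against 0.105 to 0.123. Klrc2 (cDNA clone probe) was 0.0778 in TGFb1-Tg lung 4 and Klrb1a was 0.193 in WT lung 3, against 0 in the others of their group.

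In the centred log2 sample channel TGFb1-Tg lung 4 stood above its group for Klra15 (0.823, others 0.621 to 0.652), Klra19 (1.88, others 1.48 to 1.55), Klra21 (0.387, others 0.0995 to 0.107) and Klraq1 (2.91, others 2.65 to 2.69). Dim values made up most of the rest. TGFb1-Tg lung 1 was apart for Klra17 (-0.222) and Klrb1a (-1.49), TGFb1-Tg lung 3 for the cDNA clone probe of Klrc2 (-2.70) and TGFb1-Tg lung 2 for Klrc3 (-2.12). WT lung 4 was apart for Klrb1a (-1) and WT lung 1 for Klrc3 (-0.541, others -2 to -1.81).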

How the results depend on the processing

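The ratio counts of 27 lower and 3 higher Klr probes were 27 and 3 on the deposited log10 table and on probes measured on all arrays, 26 and 3 with 0.05 added, 26 and 4 without dim probes, and 25 and 2 of 35 symbols with a gene's probes averaged. Quantile normalization of the ratios gave 14 lower and 0 higher with limma (25 and 1 at an unadjusted p under 0.05), and the sample channel gave 17 and 5. Leaving out 1 array gave 26 to 28 lower and 1 to 3 higher; 1 remained higher without TGFb1-Tg lung 3 or WT lung 1, 2 or 4, where both Klrb1b probes missed the threshold. The sample-channel counts of 17 and 5 were 19 and 1 after quantile normalization and 28 and 2 when centred on probes of 0.1 or more; leaving out 1 array gave 11 to 20 lower (11 without TGFb1-Tg lung 2) and 4 to 6 higher. Among called probes signs turned for Klrd1 (0.0742) and the RefSeq probe of Klrc1 (0.0468) in the sample channel, among uncalled ones for Klrb1-ps1 (0.25) and the RefSeq probe of Klra18 (-0.09) there, and for the dim probe of Klra18 averaged with its partner (-0.45). Averaging mixes probes; other causes were not tested. Blocking on the replicate number, which did not pair lungs, gave 26 and 3 in ratio and 16 and 5 in the sample channel. The 6 probes under 0.1 carry rounding error of up to 2.17 in log2 difference.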

Other observations

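Transcription factors and other lymphocyte lists around the Klr genes gave mixed values. Of all probes, 16% were called higher and 16.9% lower in ratio, and 29.3% and 14.2% in the sample channel. Of 16 probes of NK and ILC1 transcription factors, 2 were called higher in ratio, Id2 the most (0.62 ± 0.11 SE, with TGFb1-Tg lung 2 not measured), and 5 lower, Gata3 the most (-0.85). In the sample channel limma called 5 of them higher (both Ikzf2 probes, Id2, Nfil3 and Zeb2) and 0 lower (6 and 1 at an unadjusted p under 0.05). Of 17 probes of type 2 innate lymphoid cell markers, which can share Klrg1, 3 were called higher in ratio (Areg, Il1rl1 and Il2ra). Another 4 were called lower, from the genes Gata3 (the largest fall), Hes1 and Rora. The largest rise in ratio was Areg (2.70), a growth factor that epithelium also makes, and Il1rl1, the IL-33 receptor, was higher by 0.31 (adjusted p = 0.0178 in limma's fit). In the sample channel 4 of these probes were called higher (Areg, Arg1, Il1rl1 and Il7r) and 1 lower (Il2ra). Of 8 B cell marker probes 5 were called lower, Ms4a1 the most (-1.12), and 0 higher by limma (6 lower and 0 higher at an unadjusted p under 0.05), whereas in the sample channel 2 were called higher (Cd22 and Pax5) and 0 lower (2 and 0 at an unadjusted p under 0.05). Of 18 probes of NK cell growth and migration signals, 8 were called higher and 3 lower, Il12a the most (-1.33). Of 9 neutrophil marker probes 2 were called higher, Mmp8 the most (1.33), and 2 lower, S100a9 the most (-1.09). Cd68, of the macrophage lysosome, was the largest rise among monocyte and macrophage markers (1.25), and Foxj1, of ciliated cells, the largest fall among 4 lung tissue probes tested (-0.74).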
